A study of Mus musculus with 11 samples.

Results

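Acta2, Tagln, Bgn, Dcn, Sparc, Col1a1, Col1a2, Col3a1 and Pdgfrb, 9 genes of connective-tissue matrix and of the contractile apparatus, were measured in mouse macrophages. They were chosen from 18193 genes by name, and the choice was made because Acta2 and Bgn were higher in M0, so the differences of these 9 genes from M0 are a description without a test. Where a gene had several probe sets, the one brightest on average across all 11 arrays was read. Bone marrow of Rag1-/- C57BL/6 mice aged 7 weeks was cultured for 7 days and F4/80+ cells, that is cells with a macrophage surface antigen, were sorted, so all groups, M0 included, lack Rag1. M1 cells were given IFN-g, with LPS over the last 24 h (3 arrays), M2a cells were given IL-4 and IL-13 (3 arrays), and M0 cells were given no cytokines (5 arrays). Whether replicates came from separate mice is not given in the labels, so p-values cover the spread of these samples alone, and that spread may be technical.

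Connective-tissue matrix is laid down mainly by mesenchymal cells such as fibroblasts. Collagen chains assemble into triple helices and then into fibrils, small leucine-rich proteoglycans bind those fibrils, and matricellular proteins such as Sparc modify how cells attach to them. Smooth muscle actin and transgelin belong to the contractile program of smooth muscle cells and myofibroblasts, which serum response factor drives through CArG boxes and transforming growth factor beta enhances. Macrophages are better known for instructing such cells than for making the same proteins.

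RefSeq promoter windows (build GRCm38.p6) were at hand for 5 of the 9 genes (Acta2, Bgn, Sparc, Col1a2 and Col3a1). The 250 bases before the annotated start are printed for 3 genes that were each higher in M0, one for contraction, one for a proteoglycan and one for a fibrillar collagen so that the promoter letters of these kinds of gene can be compared. Capitals mark matches on either strand to the CArG box, which serum response factor binds, with at most 1 mismatch in its middle. They also mark the motif CCAAT, the motif GGGCGG of Sp1-type factors, and the motif CATTCC, the MCAT element of muscle genes.
Acta2, chr19:34255374-34255623, minus strand: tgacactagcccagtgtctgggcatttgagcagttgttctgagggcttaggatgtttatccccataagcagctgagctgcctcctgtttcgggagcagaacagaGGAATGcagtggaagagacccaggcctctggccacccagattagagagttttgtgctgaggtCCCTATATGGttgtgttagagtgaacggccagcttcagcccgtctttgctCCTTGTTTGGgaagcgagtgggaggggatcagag
Bgn, chrX:73483351-73483600, plus strand: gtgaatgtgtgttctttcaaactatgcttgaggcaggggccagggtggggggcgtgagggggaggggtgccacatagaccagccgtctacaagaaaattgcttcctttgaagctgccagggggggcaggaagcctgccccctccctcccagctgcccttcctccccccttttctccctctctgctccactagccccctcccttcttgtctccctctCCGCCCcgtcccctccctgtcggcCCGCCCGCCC
Col1a2, chr6:4505368-4505617, plus strand: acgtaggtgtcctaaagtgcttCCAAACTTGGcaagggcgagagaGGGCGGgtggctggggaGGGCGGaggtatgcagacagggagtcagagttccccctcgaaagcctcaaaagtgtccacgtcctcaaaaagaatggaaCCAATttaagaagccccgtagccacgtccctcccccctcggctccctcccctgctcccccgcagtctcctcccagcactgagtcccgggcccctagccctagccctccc
In Acta2 the capitals are one CATTCC element on the reverse strand, then 2 CArG matches, which begin 84 and 34 bases before the start. In Bgn they are 3 GGGCGG elements on the reverse strand, of which 2 overlap. In Col1a2 they are a CArG match that begins 228 bases before the start, 2 GGGCGG elements and a CCAAT element. Of the windows not printed, that of Sparc held none of these motifs and that of Col3a1 held 1 CATTCC element. Such a CArG match was in 2 of the 5 windows, CCAAT in 1, GGGCGG in 2 and CATTCC in 2. Over all 32851 windows of this length, 8.59% held such a CArG match, 33.8% CCAAT, 32.7% GGGCGG and 12.6% CATTCC. A perfect CArG box was in none of the 5 windows and in 1.47% of all windows. These matches describe the letters and show no binding.

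The deposited values were log2 probe-set values, with array medians of 5.18 to 5.22 in M1, 5.23 in M2a and 5.14 to 5.34 in M0. The number of arrays limits the precision. Averages of M0 arrays 1 to 3 and of M0 arrays 4 and 5 were the same for all probe sets to within 8.3e-05, which separate measurements would not give, and the spread and tests that use M0 carry this limit. The typical (median) SD over genes came to 0.082 in M1, 0.0857 in M2a and 0.244 in M0. For the actin control transcript, the 5' probe set minus the 3' one gave 0.13 to 0.18 in M1, -0.63 to -0.53 in M2a and -1.27 to 0.05 in M0. No detection calls came with the values. On every array of the group, 3 of the 9 genes lay under the array's median probe set in M1 (Col1a1, Col3a1 and Pdgfrb), 8 in M2a (all but Acta2) and 2 in M0 (Col3a1 and Pdgfrb), and how much of such low values is specific signal was not tested. The same limit holds for other genes at such levels below.

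Of the contractile pair, Acta2 was low in both cytokine states and Tagln mainly in M2a. Acta2, which encodes smooth muscle alpha-actin, measured 6.84, 6.86 and 6.69 in M1, 6.36, 6.40 and 6.17 in M2a, and 9.09, 10.14, 9.56, 9.82 and 9.38 in M0. Every M1 and M2a array lay more than 2 log2 units below the lowest M0 array. The mean differences from M0 were -2.80 for M1 and -3.29 for M2a, the second a 9.76-fold lower value. Tagln, transgelin, an actin-binding protein of smooth muscle, measured 6.69, 6.53 and 6.49 in M1, 4.75, 4.76 and 4.35 in M2a, and 7.01, 8.09, 6.69, 7.06 and 7.46 in M0. The M1 arrays reached the lowest M0 array, and the M2a arrays lay far below both. Its mean differences from M0 were -0.69 for M1 and -2.64 for M2a. In a mixed RNA sample, fewer cells of a type and less RNA per cell cannot be told apart, here and below.

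**Figure D1:**
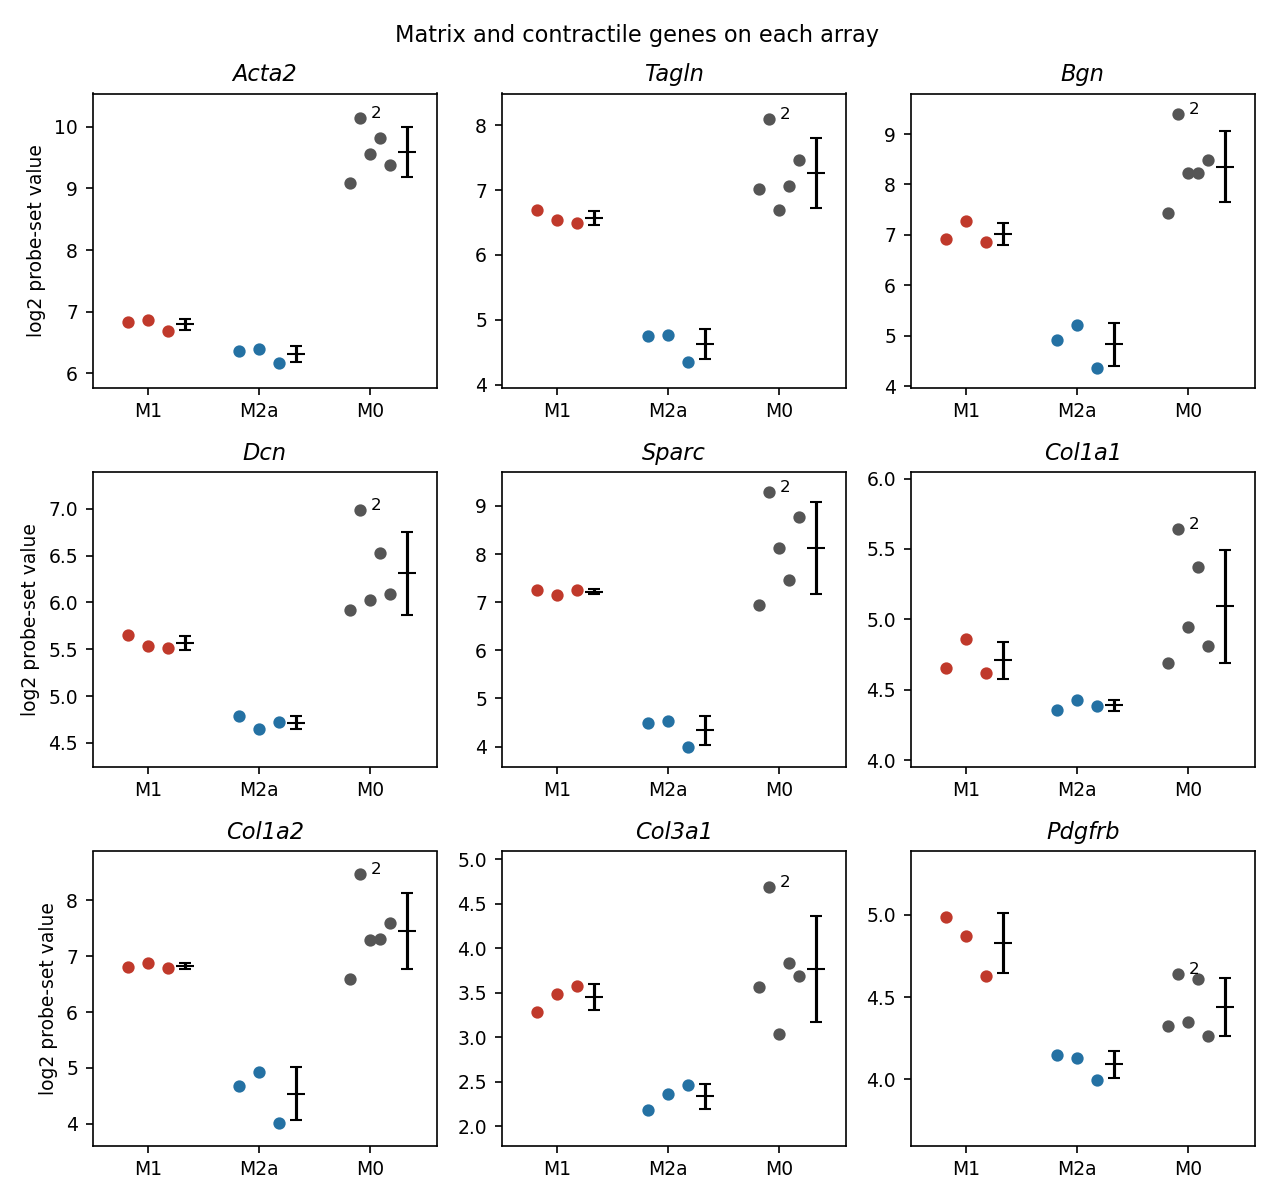
Log2 probe-set values of the 9 genes (vertical axes, each panel with its own range that does not start at 0) on each M1, M2a and M0 array (points, in the order of the replicate numbers), with the group mean and SD as a bar to the right and M0 array 2 marked. The M2a arrays lie lowest for every gene, and M0 array 2 is the highest M0 array in every panel.

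Both proteoglycans were lowest in M2a and intermediate in M1. Bgn, biglycan, measured 6.92, 7.27 and 6.86 in M1, 4.91, 5.21 and 4.37 in M2a, and 7.44, 9.40, 8.22, 8.23 and 8.48 in M0. At the probe set read, the 3 groups did not overlap, although M0 array 1 lay only a little above the highest M1 array. The differences from M0 were -1.34 for M1 and -3.53 for M2a. Dcn, decorin, which binds collagen fibrils and transforming growth factor beta, measured 5.65, 5.54 and 5.51 in M1, 4.78, 4.65 and 4.72 in M2a, and 5.92, 6.99, 6.02, 6.53 and 6.09 in M0. Its groups did not overlap either at the probe set read, and the differences from M0 were -0.74 for M1 and -1.59 for M2a.

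Sparc, a matricellular glycoprotein that binds collagen and calcium, had the largest M2a difference from M0 of the 9 genes. It measured 7.26, 7.16 and 7.24 in M1, 4.50, 4.53 and 3.98 in M2a, and 6.94, 9.30, 8.13, 7.46 and 8.78 in M0. All M1 arrays were above M0 array 1 and below the other M0 arrays, whereas no M2a array came near either group. The differences were -0.90 for M1 and -3.78 for M2a, the second a 13.8-fold lower value, and the M1 difference was -1.52 without M0 arrays 1 and 4, which had the highest neutrophil precursor markers.

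The collagen chains differed in how far they moved. Col1a2, the alpha-2 chain of type I collagen, measured 6.80, 6.88 and 6.80 in M1, 4.67, 4.92 and 4.00 in M2a, and 6.60, 8.48, 7.29, 7.31 and 7.60 in M0. M1 again lay above M0 array 1 and below the other M0 arrays, and M2a lay below all of them. The differences from M0 were -0.63 for M1 and -2.92 for M2a, and the first was -0.38 without M0 array 2 and -0.97 without M0 arrays 1 and 4. Col1a1, the alpha-1 chain of the same collagen, measured 4.65, 4.86 and 4.62 in M1, 4.35, 4.43 and 4.38 in M2a, and 4.69, 5.64, 4.94, 5.37 and 4.81 in M0. Its groups lay close together, with differences from M0 of -0.38 for M1 and -0.70 for M2a, the first being -0.24 without M0 array 2. Col3a1, the chain of type III collagen, measured 3.28, 3.49 and 3.58 in M1, 2.18, 2.36 and 2.46 in M2a, and 3.56, 4.69, 3.04, 3.84 and 3.69 in M0. The M1 arrays fell inside the M0 range, with a difference of -0.31 that was -0.08 without M0 array 2 and -0.49 without M0 array 3, while the M2a difference was -1.43.

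Pdgfrb, the beta receptor for platelet-derived growth factor and a marker of pericytes, was the one gene with a higher mean in M1 than in M0. It measured 4.99, 4.87 and 4.63 in M1, 4.15, 4.13 and 4.00 in M2a, and 4.33, 4.64, 4.35, 4.61 and 4.26 in M0. The lowest M1 array lay within the M0 range and the M2a arrays lay just under it. The differences from M0 were 0.39 for M1 and -0.35 for M2a. At its other probe set the differences from M0 were -0.49 for M1 and -1.96 for M2a, so both the direction for M1 and the size for M2a rest on the probe set.

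Counted over the 9 genes, 2 (Acta2 and Bgn) had an M1 mean at least 2-fold below M0 and 7 (all but Col1a1 and Pdgfrb) an M2a mean at least 2-fold below M0. Among all genes these shares were 6.43% for M1 and 4.97% for M2a. Every array lay below every M0 array for 3 of the 9 in M1 and for 9 in M2a, with 17.4% and 13.9% of all genes doing so. The order of means M0 above M1 above M2a held in 8 of 9 genes and in 10.7% of all genes. The median difference over the 9 genes was -0.69 for M1 and -2.64 for M2a, beside 0.06 and 0.07 over all genes. Other probe-set choices, filters, scalings and left-out arrays gave 1 to 3 of the 9 genes at least 2-fold below M0 in M1 and 5 to 8 in M2a. The choice of genes used these contrasts, and nothing is read from these counts. Both comparisons share the M0 arrays.

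M1 against M2a is the comparison that leaves M0 out. At the probe sets read, the 9 genes were higher in M1 on every array, in 9 of 9 genes without overlap (30.7% of all genes). The genes were chosen with earlier results of these data known. Each probe set was picked by its mean over all 11 arrays, M0 included, and not all unread probe sets went the same way, as given below. With limma, one fit of all 11 arrays and Benjamini-Hochberg adjustment over 18193 genes at a threshold of 0.05, 7 of 9 passed as higher in M1 and none as lower, where 13.7% of all genes passed as higher and 15.6% as lower. Sparc differed by 2.88 ± 0.48 (SE, limma adjusted p = 0.000766), a 7.37-fold higher value in M1. Col1a2 differed by 2.29 ± 0.38 (adjusted p = 0.000669), Bgn by 2.19 ± 0.39 (adjusted p = 0.00116) and Tagln by 1.95 ± 0.29 (adjusted p = 0.000288). Smaller differences passed for Col3a1 (1.12 ± 0.31, adjusted p = 0.0177), Dcn (0.85 ± 0.23, adjusted p = 0.0165) and Pdgfrb (0.74 ± 0.13, adjusted p = 0.00142). Acta2 differed by 0.49 with a 95% interval of 0.01 to 0.96 (adjusted p = 0.119) and Col1a1 by 0.32 with an interval of -0.15 to 0.79 (adjusted p = 0.299), and neither passed. The median over the 9 genes was 1.12, beside -0.02 over all genes.

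That fit shares its spread with the M0 arrays, which vary more. With the 6 M1 and M2a arrays alone, Acta2 (limma adjusted p = 0.00133) and Col1a1 (adjusted p = 0.00793) passed as well, 9 of 9 in all, but 27.0% of all genes then passed as higher in M1. The call of Dcn was lost without M1 array 1 (adjusted p = 0.058) or M2a array 2 (0.0568), and that of Col3a1 without M1 array 2 (0.0556), M1 array 3 (0.0636) or M2a array 1 (0.0653). Over the mean of its probe sets Dcn differed by 0.38 (adjusted p = 0.129), and Pdgfrb at its probe set with the largest spread by 1.47 (adjusted p = 0.0603), so neither passed there. The actin control difference given above was also higher on every M1 array than on every M2a array, and its part in these differences was not tested.

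**Figure D2:**
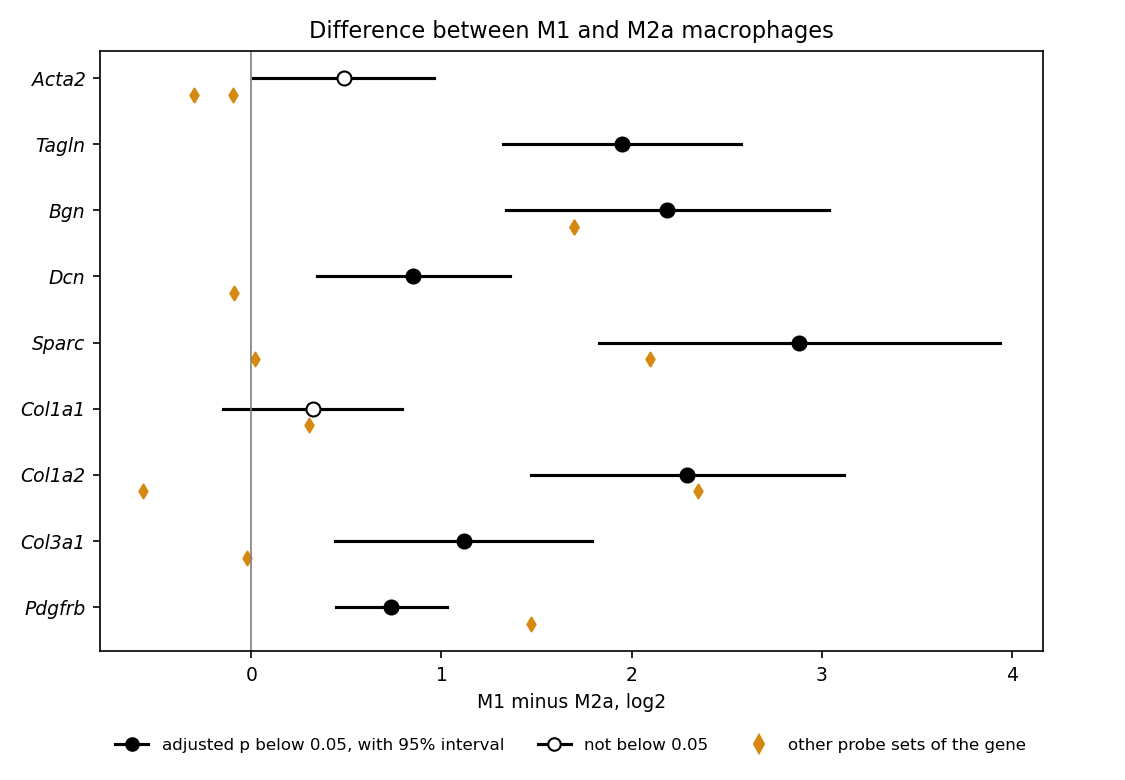
M1 minus M2a on the log2 scale for the 9 genes (circles, filled where the limma adjusted p was below 0.05) with 95% intervals of the fit, and the differences at each gene's other probe sets (diamonds). Sparc, Col1a2, Bgn and Tagln lie near or above 2, and both other probe sets of Acta2 lie slightly below 0.

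A gene's probe sets did not all move alike. The value of Acta2 came from an _s_at probe set, a kind that can bind several related transcripts, and the other 2 Acta2 probe sets had M0 means of 3.84 and 2.90, with M1 differences from M0 of -0.13 and -0.52 and M2a differences of -0.04 and -0.22. Of related actins, picked after their values were seen, Actg2 differed from M0 by -0.36 in M1 and -1.31 in M2a (adjusted p = 0.00178 for M2a). Acta1 differed by 0.30 in M1 and 0.35 in M2a, and Actc1 by 0.21 in M1 and -0.17 in M2a, where none passed. Bgn had 3 probe sets, with M1 minus M2a differences of 2.19, 1.70 and 1.70. At the 2 not read, the M1 arrays overlapped M0, with M1 differences from M0 of -0.64 and -0.25. Col1a2 gave 2.35 at a second probe set and -0.57 at the third, whose M2a mean was 3.13. Sparc gave 2.10 at a second probe set and 0.02 at the third. The other probe sets gave -0.09 for Dcn, 0.30 for Col1a1, -0.02 for Col3a1 and 1.47 for Pdgfrb.

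Averaging a gene's probe sets changed several of these differences by over 1.5 times. Acta2 then differed by -1.15 in M1 and -1.18 in M2a, and without _x_at and _s_at probe sets by only -0.13 in M1 and -0.04 in M2a. The averaged M1 difference was -0.74 for Bgn and -0.53 for Sparc. The averaged M2a difference was -2.19 for Sparc, -0.89 for Dcn and -0.89 for Col3a1, and for Pdgfrb it was larger, at -1.15. Between M1 and M2a, averaging gave 1.67 for Sparc, 1.36 for Col1a2 and 0.55 for Col3a1, which still passed, and 0.03 for Acta2 (adjusted p = 0.875).

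Within M0 the same array was the highest for every gene. M0 array 2 was the highest of the 5 in 9 of 9 genes, which was so in 12.0% of all genes. The range over the M0 arrays was 2.36 for Sparc, 1.97 for Bgn, 1.88 for Col1a2, 1.65 for Col3a1 and 1.40 for Tagln, against 0.38 for Pdgfrb. Array 1 was the lowest for Acta2, Bgn, Dcn, Sparc, Col1a1 and Col1a2, array 3 for Tagln and Col3a1, and array 5 for Pdgfrb. Without M0 array 2, the counts of genes at least 2-fold below M0 were again 2 for M1 and 7 for M2a. The M1 difference was then -2.66 for Acta2 and -1.08 for Bgn, and the M2a difference -3.49 for Sparc and -2.67 for Col1a2.

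**Figure D3:**
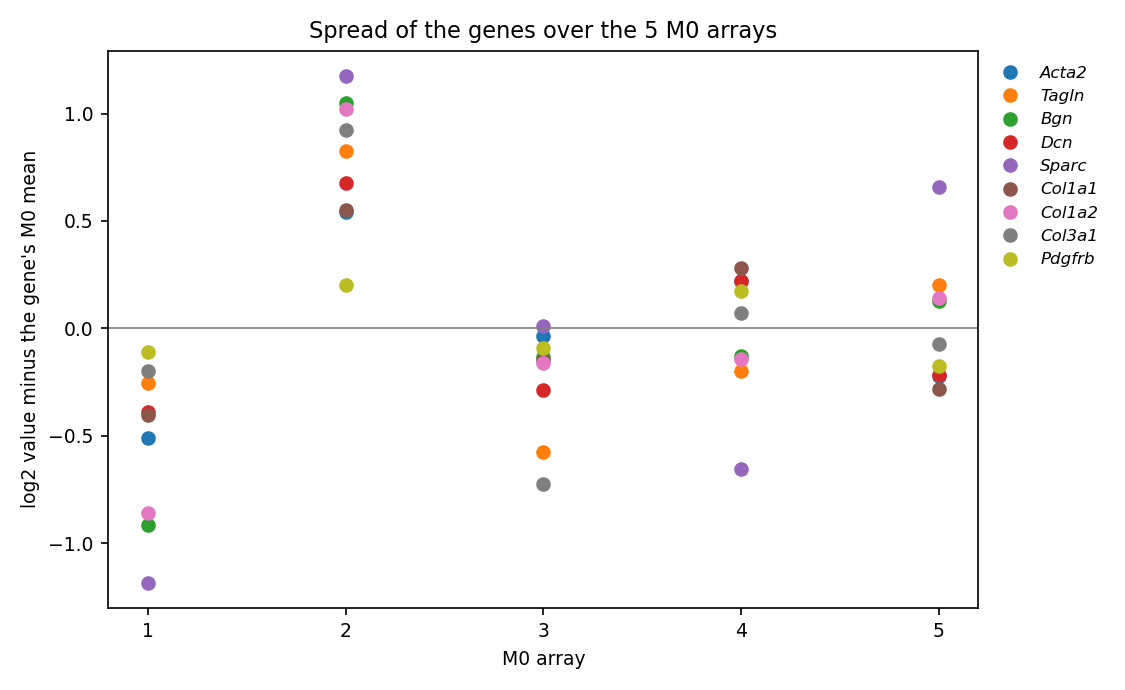
Each gene's log2 value on the 5 M0 arrays (horizontal axis) minus its M0 mean (vertical axis), one colour per gene. All 9 genes lie above 0 on array 2 and below 0 on array 1, and Sparc spans the widest range.

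Genes around the 9 in the same programs were taken from 7 lists that hold 102 genes, of which 98 were measured. In M1 against M0, 21 of the 98 rose and 16 fell (limma, 22.1% and 17.6% of all genes). In M2a against M0, 14 rose and 34 fell (18.6% and 13.3% of all genes). Their median difference was -0.07 for M1 and -0.29 for M2a. In M1 against M2a, 36 were higher and 15 lower (13.7% and 15.6% of all genes). M0 array 2 was the highest M0 array for 36 of the 98, 9 of the 20 contractile and actin-binding genes among them, beside 12.0% of all genes.

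Among 8 other fibrillar collagen chains, 3 fell and none rose in M1, and 1 fell and 1 rose in M2a. The counts of both collagen lists here stand beside 22.1% of all genes rising and 17.6% falling in M1, and 18.6% and 13.3% in M2a. Col5a2, a type V chain that co-assembles with type I collagen, fell in M2a to 3.48, 3.67 and 3.48, against 5.30, 7.14, 6.05, 5.88 and 6.45 in M0 (-2.62 ± 0.31, adjusted p = 6.96e-05). Col24a1 rose in M2a by 0.69, between low means of 2.22 in M0 and 2.91 in M2a. In M1, Col11a2 fell (-0.75), from a mean of 4.68 in M0 to 3.93. These means of Col24a1 and Col11a2 lay below the array medians. The M1 fall of Col27a1 (-0.41) was not called without M0 array 1 (adjusted p = 0.054) or without M1 array 2 (0.141) or 3 (0.0599). Over the mean of its probe sets it was -0.05 (adjusted p = 0.763). Among 11 network and associated collagens, 1 rose and 1 fell in M1, and 1 rose and 6 fell in M2a. The basement membrane chains Col4a1 and Col4a2 fell in M2a (-1.51 and -1.28), and Col4a5 rose there by 0.98. Col4a2 was instead higher in M1 than in M0 (0.65, adjusted p = 0.0341), with overlapping arrays. In M1, Col4a1 fell (-0.91), but over the mean of its probe sets the difference was -0.13 (adjusted p = 0.457).

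Of 14 measured collagen-modifying genes, 7 rose and none fell in M1, and 2 rose and 7 fell in M2a. Over all genes, 22.1% rose and 17.6% fell in M1, and 18.6% rose and 13.3% fell in M2a. Set against each other, 10 were higher and 1 lower in M1 than in M2a, where 13.7% and 15.6% of all genes were. Lox, lysyl oxidase, which crosslinks collagen and elastin, measured 10.51, 10.49 and 10.48 in M1, 4.54, 4.43 and 3.64 in M2a, and 6.26, 7.98, 6.66, 6.76 and 7.17 in M0. M1 lay above and M2a below every M0 array, with differences of 3.53 ± 0.33 (adjusted p = 6.19e-06) and -2.76 ± 0.33 (adjusted p = 6.64e-05). Loxl3, a related oxidase, rose in M1 by 1.88. Serpinh1, the collagen chaperone HSP47, fell in M2a by 1.83, while Crtap and P3h1, partners in collagen prolyl 3-hydroxylation, rose in M2a by 0.89 and 0.63. P3h1 rose in M1 too (0.61, adjusted p = 0.00087), whereas Crtap differed there by -0.11 (adjusted p = 0.756). The call of Crtap was lost without M2a array 2 (adjusted p = 0.0524) or 3 (0.0516).

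Of 24 proteoglycans, glycoproteins and matricellular genes, 6 rose and 1 fell in M1, and 3 rose and 6 fell in M2a. Shares over all genes were 22.1% up and 17.6% down in M1, and 18.6% up and 13.3% down in M2a. Thbs1, thrombospondin 1, measured 5.81, 5.84 and 6.34 in M2a, against 11.45, 10.69, 10.55, 9.61 and 12.19 in M0 (-4.90 ± 0.44, adjusted p = 7.97e-06), and Tnc, tenascin C, fell there by 1.40. In M1, Thbs1 measured 12.07, 12.08 and 12.18, a higher mean than in M0 (1.22, adjusted p = 0.0453) with overlapping arrays. Fn1, fibronectin, instead rose in M2a to 10.06, 10.28 and 10.29, against 8.04, 8.42, 7.21, 7.64 and 8.14 in M0 (2.32 ± 0.23, adjusted p = 1.5e-05), and Fbln5, an elastic-fibre protein, rose by 2.11. In M1, Mfap2, a microfibril protein, rose by 0.76. The M1 rise of Ecm1 (0.86) and fall of Hspg2, perlecan of basement membranes (-0.81), were each lost when any one M1 array was left out, with adjusted p of 0.0833 to 0.0867 and 0.0576 to 0.0583.

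The contractile and actin-binding list of 20 genes had 3 rises and 5 falls in M1, and 2 rises and 7 falls in M2a. Across all genes, 22.1% rose and 17.6% fell in M1, and 18.6% rose and 13.3% fell in M2a. Cnn3, acidic calponin, rose in M1 to 11.61, 11.67 and 11.61, against 5.54, 7.05, 5.98, 5.86 and 6.52 in M0 (5.44 ± 0.27, adjusted p = 4.2e-08), and Csrp1 rose there by 1.43. Cnn2, a calponin of non-muscle cells, fell in both states, with -2.89 in M1 and -2.95 in M2a. Vcl, vinculin of focal adhesions, fell in M1 (-2.50) and differed by 0.19 in M2a (adjusted p = 0.328). Myl9, a myosin regulatory light chain, fell in M2a by 2.94, while Tpm1 and Tagln2 rose there by 1.09 and 0.71. Myh11, smooth muscle myosin heavy chain, measured 4.58 to 4.73 in M1, 5.05 to 5.11 in M2a and 5.07 to 6.29 in M0. Des, desmin, measured 6.12 to 6.19 in M1, 5.84 to 5.94 in M2a and 5.64 to 6.09 in M0.

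Of 16 genes of serum response factor and transforming growth factor beta, 2 rose and 5 fell in M1, and 2 rose and 7 fell in M2a. Both lists of this paragraph stand beside 22.1% of all genes rising and 17.6% falling in M1, and 18.6% and 13.3% in M2a. Of the target genes, Ccn2, connective tissue growth factor, measured 5.43, 6.03 and 5.68 in M1, 3.56, 3.40 and 2.80 in M2a, and 6.26, 8.58, 7.40, 6.98 and 7.85 in M0, with differences of -1.70 ± 0.42 (adjusted p = 0.00699) and -4.16 ± 0.42 (adjusted p = 1.87e-05). Ccn1, a matricellular relative of Ccn2, fell by 2.66 in M1 and 2.32 in M2a, and over the mean of its probe sets by 1.16 in M1 and 1.95 in M2a. In M1, the rises of Tgfb1 (0.44) and Srf (0.32) were lost when any one M1 array was left out (adjusted p of 0.0802 to 0.107 for Tgfb1 and 0.0577 to 0.147 for Srf). Leaving out single M0 or M2a arrays also ended them, for Tgfb1 M0 array 4 (0.0502) and for Srf M0 arrays 1, 3 and 5 and M2a arrays 1 and 2 (0.0513 to 0.0757). The ligand Tgfb1 rose in M2a by 0.81 and the coactivator Mrtfb by 1.07. Over the mean of its probe sets, Tgfb1 differed by 2e-04 in M1 (adjusted p = 0.999) and by 0.10 in M2a (adjusted p = 0.403). Among 5 genes of the platelet-derived growth factor system, 2 rose and 1 fell in M1, and 3 rose and none fell in M2a. In M1, Pdgfd fell (-0.86), from a mean of 3.23 in M0 to 2.38, both below the array medians. Pdgfa rose in M1 by 0.74, a call lost without M1 array 1 (adjusted p = 0.0531). The ligands Pdgfa and Pdgfb both rose in M2a by 1.62. Of the receptor genes, Pdgfra rose there by 0.44 (adjusted p = 0.0302), and Pdgfrb was lowest there.

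Averaging probe sets also moved other list genes by over 1.5 times while they still passed. In M1 the averaged differences were -1.35 for Vcl and -0.39 for Pdgfd. In M2a they were -1.49 for Col5a2, -0.65 for Col4a1, 2.00 for Col4a5, -1.79 for Lox, 1.05 for Fbln5, -0.86 for Tnc and 0.70 for Mrtfb. The averaged M1 difference of Hspg2 was -0.31 and did not pass (adjusted p = 0.136), and that of Pdgfa was 0.61 (adjusted p = 0.0529). At the probe set with the largest spread, Col4a5 differed in M2a by 3.03 and Csrp1 in M1 by 2.16. Without M0 arrays 1 and 4, the differences were smaller by over 1.5 times for Crtap (0.54) and Mrtfb (0.66) in M2a and for Ecm1 (0.55), Hspg2 (-0.45), Pdgfa (0.45) and Col27a1 (-0.26, adjusted p = 0.0568) in M1.

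**Figure D4:**
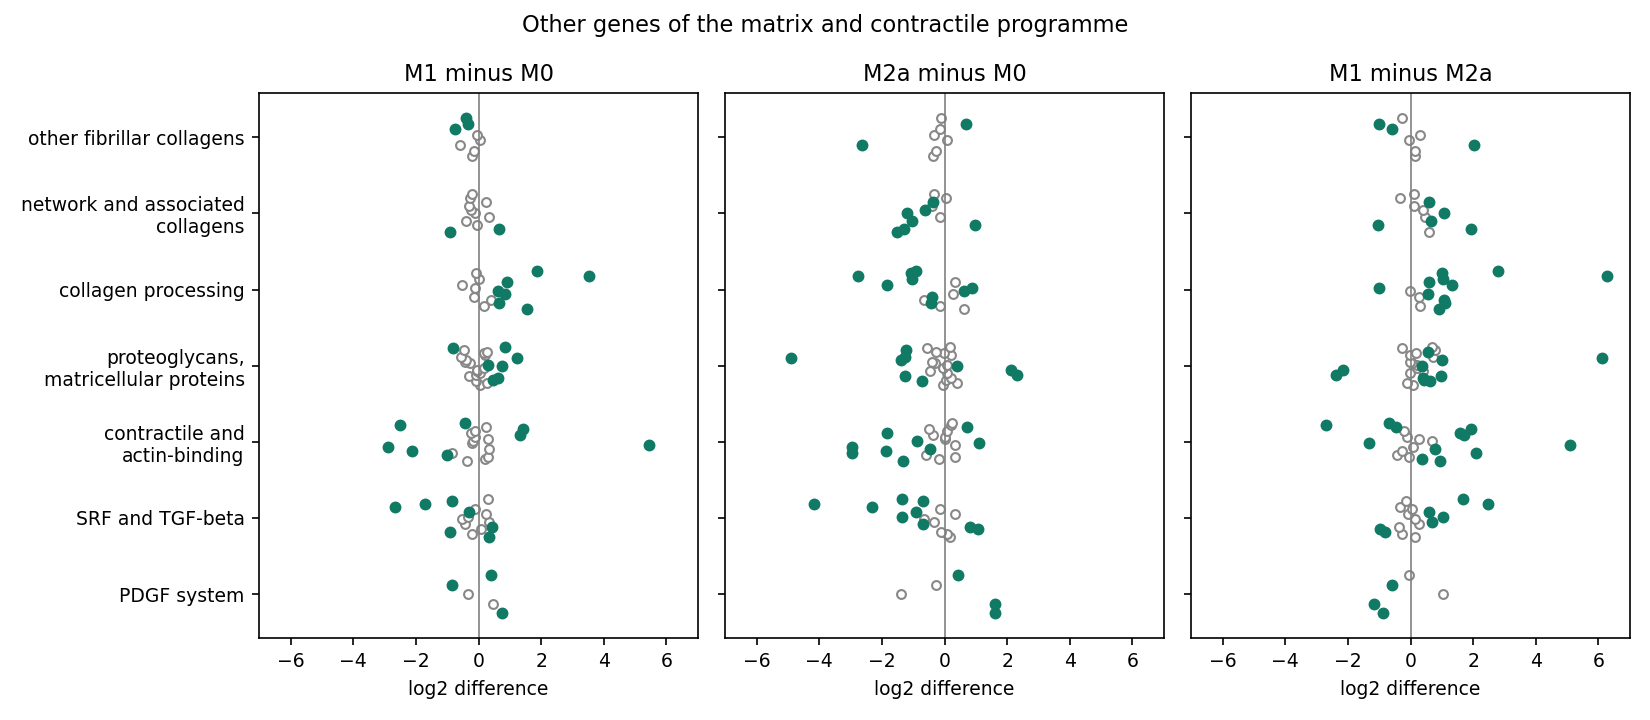
Log2 differences (horizontal axes) of the 98 measured genes of the 7 lists (rows) for M1 minus M0, M2a minus M0 and M1 minus M2a, with filled points where the limma adjusted p was below 0.05. The 7 collagen-processing genes filled in M1 minus M0 all lie to the right, and falls outnumber rises in M2a minus M0.

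The sorted cells carried macrophage markers throughout. The summed level of 10 markers (log2 of the sum of linear values) was 15.70 to 15.71 in M1, 14.64 to 14.74 in M2a and 14.99 to 15.40 in M0. Of the 10, 5 rose and 1 fell in M1 and 2 rose and 6 fell in M2a. This sum leans on its brightest gene, Lyz2 (14.05 to 14.08 in M1, 13.24 to 13.29 in M2a, 13.95 to 14.17 in M0). It does not measure what part of the cells were macrophages. On M0 array 1 the 7 neutrophil precursor markers summed to 15.78, above the 14.99 of these 10. Fibroblast markers gave no uniform picture. Their summed level over 14 genes was 8.38 to 8.58 in M1, 10.95 to 11.42 in M2a and 11.30 to 11.85 in M0. S100a4, which macrophages also express, carried most of it in M2a and M0 but not in M1. It measured 5.62 to 6.29 in M1, 10.74 to 11.25 in M2a and 10.91 to 11.63 in M0. S100a4 fell in M1 (-5.46, adjusted p = 6.02e-09). Without S100a4 the summed level was 8.14 to 8.26 in M1, 8.12 to 8.32 in M2a and 8.81 to 9.22 in M0. Of the 14, 1 rose and 3 fell in M1 and 1 rose and 5 fell in M2a. Beside both marker counts, 22.1% of all genes rose and 17.6% fell in M1, and 18.6% rose and 13.3% fell in M2a. Pdgfra, a defining fibroblast gene, measured 4.02 to 4.21 in M1, 4.04 to 4.26 in M2a and 3.53 to 4.07 in M0, and Lum 3.65 to 3.82, 3.64 to 3.70 and 3.52 to 3.82. In the other direction, Pi16, a marker of adventitial fibroblasts, measured 4.57 to 4.63 in M1, 6.12 to 6.39 in M2a and 7.34 to 8.31 in M0, and fell in both states (-3.11, adjusted p = 2.32e-07 in M1, and -1.46, adjusted p = 0.000155 in M2a). Dpt, dermatopontin, also fell (-0.71, adjusted p = 0.0354 in M1, and -0.75, adjusted p = 0.0345 in M2a). Pdgfra rose by 0.39 in M1 (adjusted p = 0.043) and 0.44 in M2a (adjusted p = 0.0302). M0 array 2, the highest for the 9 genes, was the highest M0 array for 5 of the 14 fibroblast markers (Lum, Postn, Prrx1, Loxl1 and Fbln2) and for 1 of 8 pericyte and smooth muscle markers, beside 12.0% of all genes. Pi16 and Dpt were instead at their lowest M0 values on array 2 (7.34 and 4.39).

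Markers of other cell types were summed in the same way. Their counts stand beside 22.1% of all genes rising and 17.6% falling in M1, and 18.6% and 13.3% in M2a. The summed level of 8 pericyte and smooth muscle markers was 8.13 to 8.23 in M1, 8.18 to 8.26 in M2a and 7.93 to 8.51 in M0, of 4 measured osteoblast markers 6.66 to 6.85, 6.74 to 6.79 and 6.42 to 7.38, and of 8 endothelial markers 8.27 to 8.37, 8.39 to 8.45 and 8.42 to 8.89. In M1, 2 pericyte markers, 1 osteoblast marker and 4 endothelial markers fell, and 1 endothelial marker rose. In M2a, 1 pericyte marker rose and 1 fell, 1 endothelial marker fell and no osteoblast marker passed. The 8 marrow stroma markers summed to 8.40 to 8.45 in M1, 9.04 to 9.46 in M2a and 8.56 to 8.87 in M0, with 3 falls in M1 and 1 rise and 3 falls in M2a. The 5 measured megakaryocyte markers summed to 8.58 to 8.69 in M1, 9.12 to 9.51 in M2a and 12.17 to 12.71 in M0, and 4 of 5 fell in each state. The 7 neutrophil precursor markers summed to 8.85 to 9.06 in M1, 8.10 to 8.40 in M2a and 14.35 to 15.78 in M0, and 7 of 7 fell in each state. The part of these other cells in the M0 levels of the 9 genes was not tested.

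The genes whose values over the 11 arrays were most like those of Acta2, among 2081 genes that spanned at least 2 log2 units, were F2r (Pearson r = 0.989), Slc35d3 (0.986), Angpt1 (0.985), Enah (0.983) and Tmem176b (0.982). Those most like Bgn were Ccn2 (r = 0.994), Col1a2 (0.984), Ly86 (0.984), Col5a2 (0.979) and C5ar1 (0.978). The 11 arrays fall into 3 groups, so these values describe likeness of group levels and array-to-array shifts. Among the 9 genes themselves, Sparc and Col1a2 were most alike (r = 0.988), and Acta2 and Pdgfrb least (r = 0.127).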

How the data were processed

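Total RNA of 11 samples was hybridized to Affymetrix arrays. The deposited values are log2 probe-set values for 45101 probe sets. Per the submitters' processing notes the authors used Partek. How background, probe summary and normalization were handled is not given in the sources used here. Of 35890 probe sets in the platform annotation, 34945 had 1 symbol, updated through Entrez identifiers, and 932 had several and were left out. Each of 18193 genes was read at its probe set with the highest mean. Groups were compared with limma 3.58.1 in R 4.3.3 (lmFit, eBayes, all arrays in one fit, Benjamini-Hochberg, threshold 0.05). The fit was checked on simulated data for M1 against M2a only, with the spread of M1 and M2a given to all groups. That check does not cover the larger spread of M0 or the comparisons with M0. No filter was used. The members and lists were chosen with earlier results of these data known. Named were all members, up to 2 rises and 2 falls per list against M0 among called genes without overlap, markers, and the 5 genes most like Acta2 and Bgn. Actg2, Acta1, Actc1 and the fibroblast list without S100a4 were chosen after values were seen. Alternatives covered normalization, probe-set choice, filters, spread models, arrays used, replicate block and threshold.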

Additional observations from a re-analysis of the deposited data

How the results depend on the processing

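Over 27 alternatives the number of the 9 genes that passed in M1 against M2a ran from 4 to 9. It was 4 with genes above the median gene only, which leaves fewer of them to test, and 6 to 7 when single arrays were left out. The count at least 2-fold below M0 in M1 was 1 with probe sets averaged per gene and 1 without _x_at and _s_at probe sets. Without those probe sets Acta2 differed by -0.10 between M1 and M2a, and Pdgfrb differed in M1 from M0 by -0.0505 with the mean of its probe sets and by -0.49 at the probe set with the largest spread. Genes called in M1 against M0 (7217) were 4625 above the median gene, 4758 with M0 arrays 4 and 5 only and 4760 at a threshold of 0.01. In M2a against M0 (5804) they were 3801 and 3656 in the last 2 settings. In M1 against M2a (5341) they were 11342 with array weights, 10357 with only the 2 groups, 8653 without M0 arrays 1 and 4, a setting chosen after the data were seen, and 3391 at 0.01. List genes called were 21, 21 and 23 above the median gene in M1 against M0 (37), M2a against M0 (48) and M1 against M2a (51), 58 in the first with array weights, and 29 in the third at 0.01. Except where construction shows it (fewer genes or arrays, a stricter threshold), the cause was not tested. Same-numbered samples deviated together with correlations of -0.04 to 0.25. With no differently numbered samples beside them, these values cannot settle whether the numbers pair the samples. With the replicate block, 7 of the 9 genes passed in M1 against M2a, and 8023, 6492 and 6963 genes were called in M1 against M0, M2a against M0 and M1 against M2a. The block changed none of the 9 calls. Of the other named genes it ended the call of Ecm1 in M1 (adjusted p = 0.0538). Low signal in M2a limits how far differences there can be measured.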
